A study of Mus musculus with 6 samples.

Results

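The genes described here are 10 members of the FoxO pathway, chosen by gene symbol: the transcription factor genes Foxo1, Foxo3 and Foxo4, and 7 genes that FoxO factors are known to control or that act beside them under stress or low insulin, Bcl6, Txnip, Sesn1, Sesn3, Pik3ip1, Ccng2 and Irs2. They are 10 of the 17152 genes that were tested, and each of the 10 passed the filter on low read numbers. RNA was sequenced from satellite cells, the resident stem cells of muscle, sorted from uninjured mouse hindlimb and taken without culture. The 3 Pax7WT and 3 Pax7KR libraries are biological replicates of each genotype on the C57BL/6J strain. Pax7KR mice carry, in both copies of the gene for the satellite cell factor PAX7, a codon for arginine in place of that of a lysine which is acetylated in the normal protein. They were made by delivering Cas9 to zygotes, and founders were crossed to normal mice and their offspring interbred, so that homozygotes and Pax7WT littermates could be compared. Mice were 6 to 8 weeks old, the change is present in every cell of the animal, and the number of founders and of mice per library was not given in the sources used here. Cells were gated as α7-INTEGRIN+ and CD34+, and as negative for CD31, CD11b, SCA-1 and CD45, a gate against endothelial and immune cells among others. Endothelial and erythroid transcripts were still present in every library, as given below. The paper also found another acetylated lysine in PAX7, and describes these mice as losing a single acetylation site. The comparison asks whether the loss of that site goes with a change in the RNA of these genes.

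FoxO factors are forkhead transcription factors that stay in the nucleus while insulin and growth factor signalling is low, and that the kinase AKT sends to the cytoplasm when it is high. In the nucleus they raise genes that slow the cell cycle, guard against oxidants and restrain growth signalling, and some of those genes feed back on the pathway. In muscle stem cells they are known for keeping the cells quiescent, and in muscle fibres for driving atrophy genes.

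Libraries held 17822367 to 27908054 estimated reads, of which 17716860 to 27742464 could be assigned to a gene. Pax7 itself, where the Pax7KR change is a substitution that a read total cannot show, was at 1550 ± 101 CPM, reads scaled to equal library size, in Pax7WT and 1502 ± 119 in Pax7KR (SD, n = 3), a log2 difference of -0.05. The 12 satellite cell markers, Myf5 among them, summed to 8480 to 9290 CPM in Pax7WT and 9020 to 9190 in Pax7KR, while the 12 immune markers, Ptprc and Cd68 among them, summed to 10.4 to 16.3 over all 6 libraries, with Cd3e at 0. The sum of 4 Y-linked genes was 131 CPM in Pax7KR replicate 2 and 299 to 355 in the other 5 libraries, with Xist at 0.437 to 2.29 in all, and without that library the log2 differences of Foxo3 and Txnip described below were 0.43 and -0.49. Its part in any result was not tested.

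Levels of different members were compared in TPM, the salmon scale of relative transcript abundance that takes transcript length into account. Txnip was the most abundant member, with a mean of 740 TPM over the 6 libraries and a range of 591 to 936, above every other member in every library. Bcl6 followed at 127 TPM, with a range of 80.4 to 206. Sesn1 at 83.1, Irs2 at 72.7, Foxo4 at 69.8, Foxo1 at 63.6, Pik3ip1 at 62.5, Ccng2 at 50.5 and Foxo3 at 45.9 TPM came next. From Bcl6 down to Foxo3 each gene's range overlapped that of its neighbour, so the order of neighbours is not fixed by these libraries. Some genes farther apart did not overlap: the lowest Bcl6 value, 80.4, was above the highest of Foxo4 (79.0) and of Foxo3 (63.5). Sesn3 was the lowest, at 16.1 TPM with a range of 13.6 to 18.0, below all other members in every library.

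No member differed between genotypes at an adjusted p under 0.1 in edgeR's quasi-likelihood test, and neither did any other gene: 0.0% of the 17152 genes passed, with a smallest adjusted p of 0.302. At an unadjusted p under 0.05 there were 803 genes, and 2 members were among them. Foxo3 was 1 of 10 members higher in Pax7KR at that level, against a background of 2.26% of all genes, and Txnip was 1 of 10 lower, against 2.43%. Members were chosen with earlier results of these data known, so the shares here are background only and no test of the list was made. Of the 10 members, 5 had a higher and 5 a lower estimate in Pax7KR (median log2 difference -0.04), and of all genes tested 8399 had a higher and 8753 a lower one (median -0.004). DESeq2 on the summed reads gave the same 2 members, Foxo3 and Txnip, an adjusted p under 0.1. It called 0.105% of genes higher and 0.07% lower. The study itself used an older version of DESeq2 and loaded the salmon estimates in another way. With transcript lengths as an offset, DESeq2 gave an adjusted p of 0.0459 for Txnip and 0.187 for Foxo3. Counted without any model, the 3 libraries of each genotype did not overlap for Foxo4, which was higher in Pax7KR, and for Txnip, which was lower; that is 1 of 10 members in each direction, and over all genes 5.14% lay apart as higher and 5.19% as lower. An exact permutation test of 3 against 3 libraries can give no p below 0.1, so the values below are judged by the fit across all genes. In these bulk samples fewer cells that hold a transcript and less of it in each cell cannot be told apart.

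**Figure D1:**
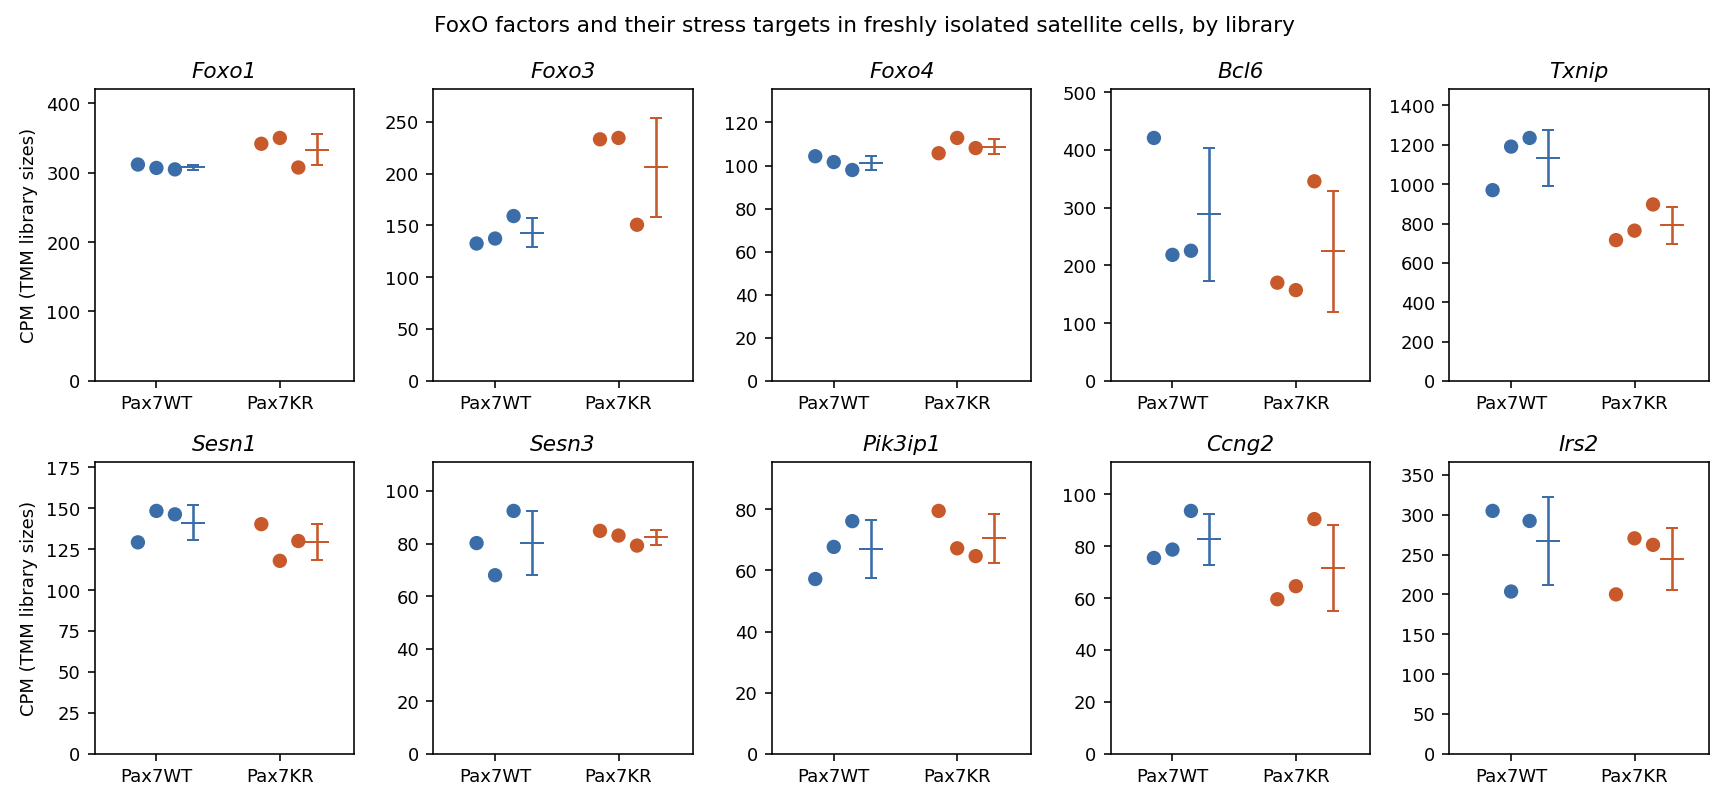
CPM of the 10 members in each library, on a linear axis from 0, with Pax7WT in blue and Pax7KR in orange; points are libraries and the bars beside them give the mean and SD of 3 libraries. Txnip is lower in all 3 Pax7KR libraries than in any Pax7WT library, while for Foxo3 the third Pax7KR library lies within the Pax7WT range.

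**Figure D2:**
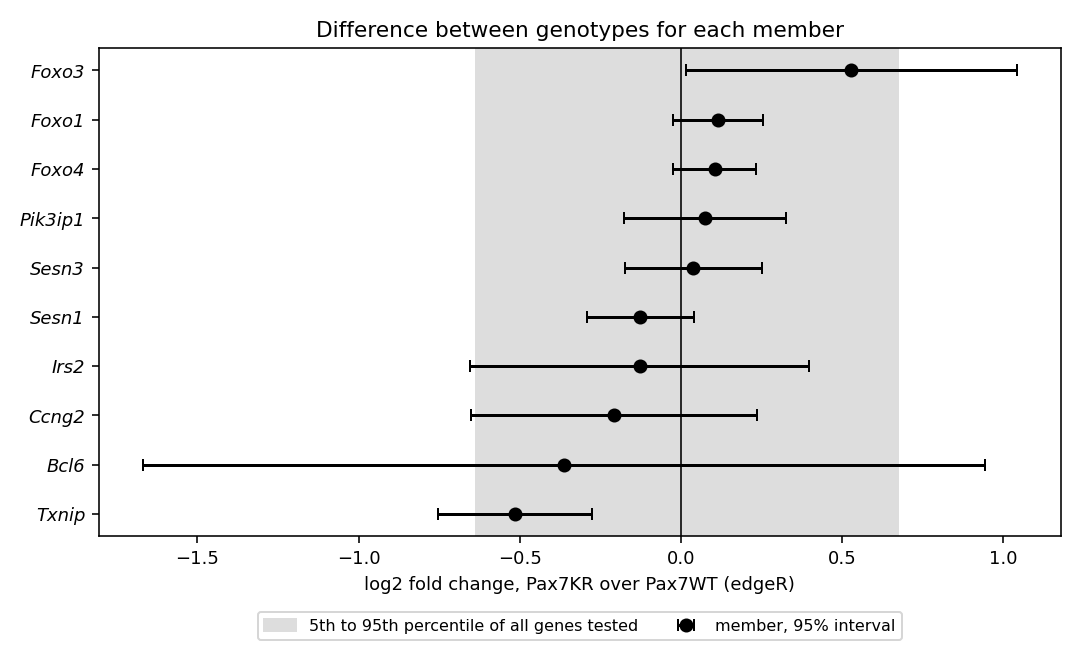
Log2 fold change of each member, Pax7KR over Pax7WT, with its 95% interval from edgeR; the grey band spans the 5th to 95th percentile of the fold changes of all 17152 genes tested. The intervals of Foxo3 and Txnip do not reach 0 and those of the other 8 members do, and all 10 fold changes lie inside the band.

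Foxo3 (ENSMUSG00000048756, GRCm38 chr10:42181841-42276755, minus strand), the FoxO factor best known for atrophy and autophagy genes, was at 133, 137 and 159 CPM in the 3 Pax7WT libraries and at 233, 235 and 151 CPM in the 3 Pax7KR libraries. Replicates 1 and 2 of Pax7KR lay above every Pax7WT library, and replicate 3 lay between the lowest and the highest Pax7WT library, so the groups overlapped. The mean was 143 ± 14.1 CPM in Pax7WT and 206 ± 48.0 in Pax7KR (SD, n = 3), a log2 difference of 0.53 with a standard error of 0.20 and a 95% interval of 0.02 to 1.04. In edgeR its unadjusted p was 0.0456, rank 730 of all genes, and its adjusted p 0.992. Without Pax7KR replicate 3 the log2 difference was 0.71 (edgeR adjusted p = 0.0109), and without each of the other libraries in turn it was 0.43 to 0.61 and not called. DESeq2 gave the same size with an adjusted p of 0.0772, or 0.187 once transcript lengths entered as an offset.

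Foxo3 RNA came almost wholly from the full-length protein-coding transcript Foxo3-203, which held 94.1 to 97.7% of the gene's TPM, with no separation of genotypes. Only 0.106% of its 31-base words occur in another annotated gene, Foxo1 foremost, so little of the estimate could have been shared with its relative. RefSeq's promoter table for the same build (GRCm38.p6), which held windows for 9 of the 10 members, was searched on both strands for the FoxO core motif GTAAACA. The 250 bases before the Foxo3 start site (chr10:42276696-42276945, minus strand) are printed because this factor had the widest difference among the 3, and hold no match to those letters.

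Foxo3 promoter: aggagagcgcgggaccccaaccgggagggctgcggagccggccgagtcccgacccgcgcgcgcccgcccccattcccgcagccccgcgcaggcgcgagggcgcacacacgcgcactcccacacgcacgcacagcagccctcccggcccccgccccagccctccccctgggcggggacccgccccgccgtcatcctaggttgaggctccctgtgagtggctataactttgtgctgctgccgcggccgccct

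Endothelial transcripts shared part of the Foxo3 pattern between libraries. The 12 endothelial markers, Cdh5 and Pecam1 (the gene for CD31, a negative gate of the sort) among them, summed to 341, 323 and 406 CPM in Pax7WT and to 421, 497 and 355 in Pax7KR, where 11 of 12 were higher, 0 of 12 at an unadjusted p under 0.05, with a median log2 difference of 0.39 and none at 0. Like Foxo3, this sum was lowest of its genotype in Pax7KR replicate 3. The immune sum (16.3, 14.9 and 10.4 CPM in Pax7KR) and the fibro-adipogenic and smooth muscle sums were also lowest in that library. The erythroid sum was highest there, and the satellite cell and myofibre sums were lowest in Pax7KR replicates 1 and 2 in turn. In Pax7WT the endothelial sum was lowest in replicate 2, while Foxo3 was lowest in replicate 1. The part of endothelial cells in the Foxo3 difference was not tested. The glucocorticoid-responsive genes Fkbp5 and Zbtb16, a receptor chaperone and a zinc finger factor, had the same order among the Pax7KR libraries as Foxo3. They come from a list of 14 such genes, of which 5 were higher and 9 lower in Pax7KR (median log2 difference -0.12). Fkbp5 was at 47.3, 60.8 and 55.6 CPM in Pax7WT and 116, 142 and 69.6 in Pax7KR, a log2 difference of 1.01 ± 0.31 (SE, edgeR adjusted p = 0.992, and 0.0109 without Pax7KR replicate 3). Zbtb16 was at 36.6, 53.6 and 48.1 CPM in Pax7WT and ranged from 62.8 to 114 in Pax7KR, with replicate 3 the lowest, a log2 difference of 1.00 ± 0.29 (SE, edgeR adjusted p = 0.992, and 0.0817 without that library). Without each of the other libraries in turn, neither gene was called in edgeR. The log2 differences were then 0.77 to 1.09 for Fkbp5 and 0.83 to 1.13 for Zbtb16. With all 6 libraries, DESeq2 gave Fkbp5 and Zbtb16 an adjusted p of 0.399 and 0.284, and of 7.21e-06 and 0.000818 with the transcript length offset. Unlike Foxo3, both genes were higher in all 3 Pax7KR libraries than in any Pax7WT library.

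The genes with a profile most like that of Foxo3 over the 6 libraries, by the root mean square distance between centred log2(CPM + 1) values, were Dcn at 0.0893, Stab2 at 0.0979 and Ablim1 at 0.116, out of 336 genes that varied as much. Dcn, a matrix proteoglycan and fibro-adipogenic marker, was at 24.7, 26.1 and 32.8 CPM in Pax7WT and 39.8, 45.3 and 26.5 in Pax7KR. Stab2, a scavenger receptor known from sinusoidal endothelium, was at 9.55, 10.1 and 11.9 CPM and at 14.5, 17.4 and 10.8. All 3 had their lowest Pax7KR value in replicate 3, as Foxo3 did. They were chosen for their likeness to Foxo3, so this is no separate result. The summed fibro-adipogenic list, of which Dcn is 1 of 10 genes beside Pdgfra and Ly6a, was at 1950 to 2100 CPM in Pax7WT and 1980 to 2070 in Pax7KR. Pdgfra was at 1.51 to 3.81 CPM and Ly6a at 5.53 to 9.40 over the 6 libraries. Other genes of the list thus made up most of the sum, which does not show how these 3 genes moved.

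**Figure D3:**
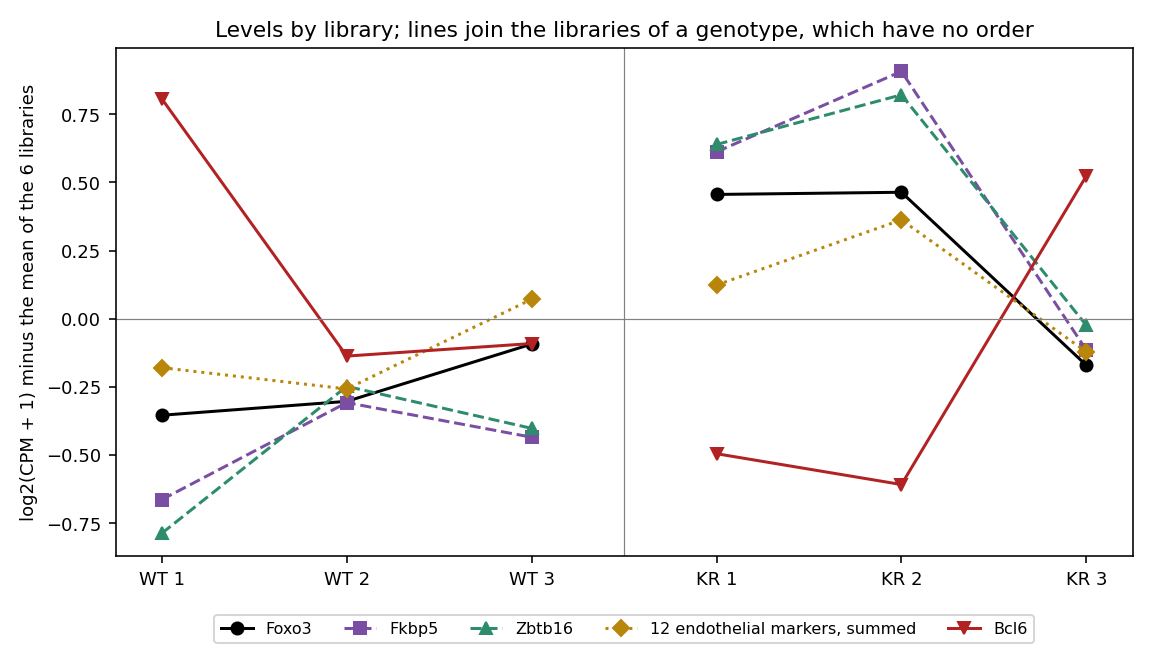
Foxo3, Bcl6, Fkbp5, Zbtb16 and the sum of 12 endothelial markers in each library, as log2(CPM + 1) minus the mean over the 6 libraries; lines join libraries of a genotype for legibility and imply no order. Foxo3, Fkbp5, Zbtb16 and the endothelial sum are highest in Pax7KR replicates 1 and 2, and Bcl6 is highest in Pax7WT replicate 1 and Pax7KR replicate 3.

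Foxo1 (ENSMUSG00000044167, chr3:52268336-52353221, plus strand), the factor most tied to insulin responses, was at 312, 307 and 305 CPM in Pax7WT and at 342, 350.1 and 308 CPM in Pax7KR. Its Pax7WT libraries were even, with an SD of 3.59 on a mean of 308, and replicate 3 of Pax7KR fell inside their range. The Pax7KR mean was 333 ± 22.5 CPM (SD, n = 3), and the log2 difference was 0.11 with a 95% interval of -0.03 to 0.25 (edgeR adjusted p = 0.992). The nearest profiles to that of Foxo1 were those of Gk, Exoc3 and Zfp664, at distances of 0.0181, 0.0195 and 0.0213.

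Foxo4 (ENSMUSG00000042903, chrX:101254528-101260873, plus strand), which shares most of its targets with the other factors, was at 104, 102 and 97.9 CPM in Pax7WT and at 106, 113 and 108 CPM in Pax7KR. The groups did not overlap, though the lowest Pax7KR library and the highest Pax7WT library were close. The log2 difference was 0.10 with a 95% interval of -0.03 to 0.23 (edgeR adjusted p = 0.992), and 0.06 with transcript length as an offset. The transcript Foxo4-201 held 73.2 to 82.7% of the gene's TPM and the noncoding Foxo4-203 16.6 to 26.1%, with overlapping groups. Caskin2, Zfp335 and Cyth2 had the nearest profiles to Foxo4, at distances of 0.012, 0.0135 and 0.0144.

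Within the FoxO family the make-up of the RNA was shared among 3 factors. Of the summed TPM of the 4 FoxO genes, Foxo4 held 41.6, 40.1 and 38.7% in Pax7WT and 33.7, 36.8 and 40.2% in Pax7KR. Foxo1 held 35.59, 36.61 and 35.11% in Pax7WT and 34.11, 33.40 and 35.08% in Pax7KR, so that its Pax7KR shares were all lower, by a margin between the nearest libraries that was far smaller than the spread within a genotype. The share of Foxo3 was 20.03, 21.6 and 24.6% in Pax7WT and 30.9, 28.9 and 22.9% in Pax7KR, so that here too replicate 3 of Pax7KR lay with the Pax7WT libraries. Foxo6, the family member known from brain and named after its values were seen, held 0.873 to 2.81%.

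**Figure D4:**
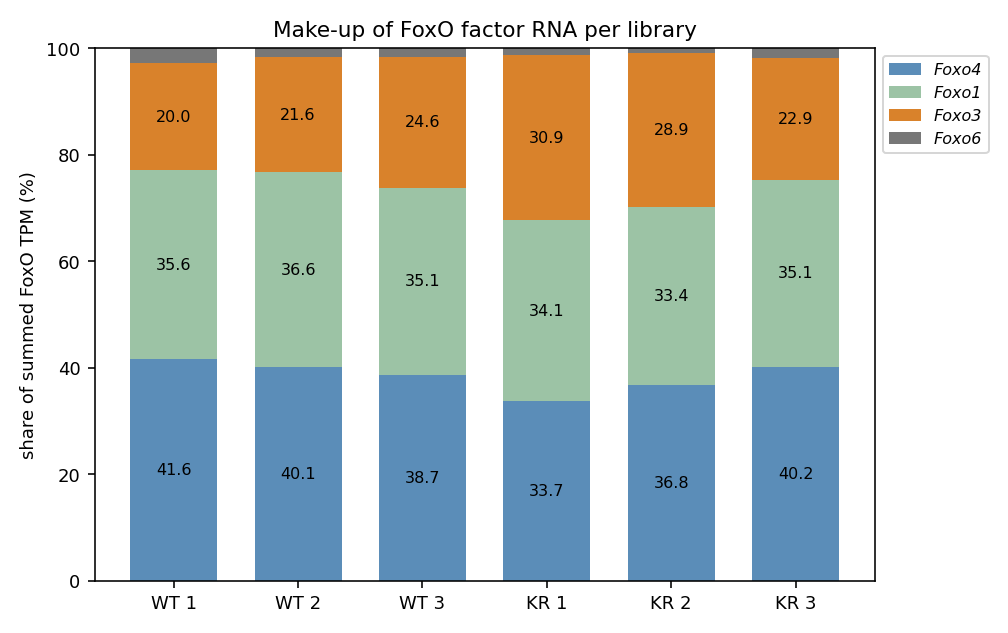
Share of Foxo4, Foxo1, Foxo3 and Foxo6 in the summed TPM of the 4 genes, in percent, 1 bar per library. Foxo3 makes up 28.9 and 30.9% in Pax7KR replicates 2 and 1, and 20.03 to 24.6% in the other 4 libraries.

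Txnip (ENSMUSG00000038393, chr3:96557957-96561883, plus strand) codes for an arrestin-like protein that binds thioredoxin and limits glucose uptake, and is a known FoxO and glucose-responsive target. It was at 969.6, 1191 and 1235 CPM in Pax7WT and at 716, 764 and 897 CPM in Pax7KR, from 16366 to 26390 reads per library. All 3 Pax7KR libraries were below all 3 Pax7WT libraries, with a gap between Pax7KR replicate 3 and Pax7WT replicate 1 that was smaller than either group's spread. The mean was 1132 ± 142 CPM in Pax7WT and 792 ± 94.0 in Pax7KR (SD, n = 3), or 0.7 of the Pax7WT level, and the log2 difference was -0.52 with a standard error of 0.11 and a 95% interval of -0.76 to -0.28. By edgeR's unadjusted p of 0.000722 it ranked 19 of all genes, with an adjusted p of 0.652. The adjusted p was below 0.1 in 5 of 18 alternative analyses. DESeq2 gave 0.00242, and DESeq2 with the transcript length offset 0.0459. In edgeR it was 9.32e-10 with no filter on low reads, 0.0807 without Pax7KR replicate 3 and 0.0515 with a replicate block. With no filter the standard error of Txnip was 0.07 and 157 genes were called, against 0.11 and 0 with the filter. With the replicate block the standard error of Txnip was 0.08, and the sample labels do not say whether same-numbered libraries were paired. In all 18 alternatives Txnip was lower in Pax7KR, by -0.62 to -0.45 on the log2 scale. In TPM the closest libraries of the genotypes stood at 709 and 700.

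The 250 bases before the Txnip start site (chr3:96557707-96557956, plus strand) are shown because Txnip had the smallest p of the members. They hold the FoxO core motif, in capitals, 121 bases before the start site, at chr3:96557836-96557842. Of 32851 RefSeq promoter windows of 300 bases 3.65% hold these letters on either strand, and among the members' 11 windows 2 do, that of Txnip and 1 of those of Sesn1.

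Txnip promoter: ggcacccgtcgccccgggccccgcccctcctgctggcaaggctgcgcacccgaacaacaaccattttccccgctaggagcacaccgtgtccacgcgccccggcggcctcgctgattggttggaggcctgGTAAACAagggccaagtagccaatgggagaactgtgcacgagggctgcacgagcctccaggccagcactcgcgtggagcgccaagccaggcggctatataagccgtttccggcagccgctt

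Txnip transcripts kept their proportions. Txnip-202 held 44.2 to 45.6% and Txnip-201 28.5 to 33.1% of the gene's TPM over the 6 libraries, with overlapping groups. The antisense gene Gm15441, which lies over Txnip, had 1 to 10 reads per library and was not tested. Arrdc4, a related arrestin gene named after its values were seen, was at 16.5, 22.8 and 24.7 CPM in Pax7WT and 18.3, 20.6 and 17.5 in Pax7KR, a log2 difference of -0.17 ± 0.14 (SE, unadjusted p = 0.244 in edgeR). In the list of 20 thioredoxin, arrestin and sestrin neighbours 0 genes had an unadjusted p under 0.05, while 9 had a higher and 11 a lower estimate in Pax7KR (median log2 difference -0.04). The smallest p values in it were those of Mios, Txnrd1 and Wdr59, with log2 differences of -0.14, -0.12 and 0.16.

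The profiles nearest to that of Txnip, among 475 genes that varied as much, were those of the metalloprotease gene Adam19 at a distance of 0.109, the mitochondrially encoded mt-Nd6 at 0.111 and the small GTPase gene Arl4d at 0.122. The level of mt-Nd6 was 18.0, 19.4 and 22.9 CPM in Pax7WT and 13.6, 12.8 and 13.8 in Pax7KR. Adam19 and mt-Nd6, like Txnip, showed no overlap of the genotypes, and Arl4d did. These genes were chosen for their likeness to Txnip, so this is no separate result.

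Bcl6 (ENSMUSG00000022508, chr16:23965052-23988852, minus strand), a transcriptional repressor that FoxO factors raise in other cells, varied widely within each genotype. It was at 421, 218 and 225 CPM in Pax7WT and at 170.1, 157 and 346 CPM in Pax7KR. The high libraries were replicate 1 of Pax7WT and replicate 3 of Pax7KR, so each genotype held a library far above its other 2. The log2 difference was -0.36 with a standard error of 0.48 and a 95% interval of -1.67 to 0.94 (edgeR adjusted p = 0.998), and it was 0.01 without Pax7WT replicate 1 and -0.82 without Pax7KR replicate 3. Bcl6-201 held 95.3 to 97.1% of the gene's TPM, so both high libraries used the same transcript as the rest.

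Sestrins are stress proteins that restrain mTORC1 when amino acids are short and help reduce peroxiredoxins. Sesn1 (ENSMUSG00000038332, chr10:41809935-41908424, plus strand) was at 129, 148 and 146 CPM in Pax7WT and 140.3, 118 and 130.0 CPM in Pax7KR, and Sesn3 (ENSMUSG00000032009, chr9:14275067-14333101, plus strand) at 80.2, 67.9 and 92.4 and at 84.8, 83.0 and 79.2 CPM. For both the groups overlapped, and all 3 Pax7KR values of Sesn3 lay within the Pax7WT range. The log2 difference of Sesn1 was -0.13 ± 0.08 (SE, unadjusted p = 0.123 in edgeR) and that of Sesn3 0.04 ± 0.10 (unadjusted p = 0.701). Sesn1 held 79.4 to 85.7% of the summed sestrin TPM, Sesn3 12.9 to 18.7% and Sesn2, the stress-induced member named after its values were seen, 0.763 to 1.86%. Sesn3-204 was the main transcript of Sesn3, with 86.0 to 94.8% of its TPM.

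Sesn1 RNA came mostly from the transcript with the downstream start, Sesn1-201, which begins at base 41887439 and held 78.3, 85.5 and 82.6% of the gene's TPM in Pax7WT and 81.2, 78.5 and 80.2% in Pax7KR. The window with the FoxO core motif belongs to another RefSeq start site. Its nearest annotated transcript start, 639 bases away, is that of Sesn1-202, which held 14.5 to 21.7%. In that window the motif lies 22 bases after the RefSeq start site at base 41810574, on the strand opposite to the gene, at chr10:41810596-41810602. The 29 bases around it (chr10:41810585-41810613, plus strand) are shown beside the Txnip promoter because these are the only matches among the members' windows, with the motif as read on the gene's strand in capitals.

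Sesn1 site: gaaccttctacTGTTTACcagccttttgg

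Pik3ip1, Irs2 and Ccng2 join FoxO activity to growth signalling and the cell cycle. Pik3ip1 (ENSMUSG00000034614, chr11:3330401-3342971, plus strand), a membrane inhibitor of PI3K, was at 57.2, 67.7 and 76.1 CPM in Pax7WT and 79.4, 67.2 and 64.7 CPM in Pax7KR. Irs2 (ENSMUSG00000038894, chr8:10984681-11008458, minus strand), the insulin receptor substrate that FoxO factors raise in fasting, was at 305, 204 and 292 CPM and at 200.0, 270.3 and 262 CPM. For both genes the genotypes overlapped widely. Ccng2 (ENSMUSG00000029385, chr5:93267257-93276231, plus strand), a cyclin that rises when cells leave the cycle, was at 75.5, 78.7 and 93.6 CPM and at 59.6, 64.6 and 90.5 CPM, with Pax7KR replicates 1 and 2 below every Pax7WT library and replicate 3 among them.

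The log2 difference was 0.07 ± 0.11 for Pik3ip1, -0.13 ± 0.20 for Irs2 and -0.21 ± 0.18 for Ccng2 (SE), with unadjusted p values of 0.524, 0.556 and 0.293 in edgeR. For Ccng2 it was -0.41 without Pax7KR replicate 3 and not called. Irs1, the other main substrate gene, and Ccng1, both named after their values were seen, had log2 differences of 0.15 and -0.04. Irs2 and Foxo1 each had a single annotated transcript, and Pik3ip1-201 held 58.9 to 72.5% of its gene's TPM. Ccng2-201 held 41.3 to 57.7%, and the retained-intron transcript Ccng2-204, named after its values were seen, went from 26.1, 1.5 and 5.0% in Pax7WT to 15.0, 21.9 and 16.8% in Pax7KR, with overlapping groups. The Irs2 promoter window held the E-box CACGTG 44 bases before its start site and that of Bcl6 60 bases before, letters found in 7.15% of all windows. The homeodomain palindrome TAATTA, present in 5.29% of windows, was found in 0 of the members' 11.

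**Figure D5:**
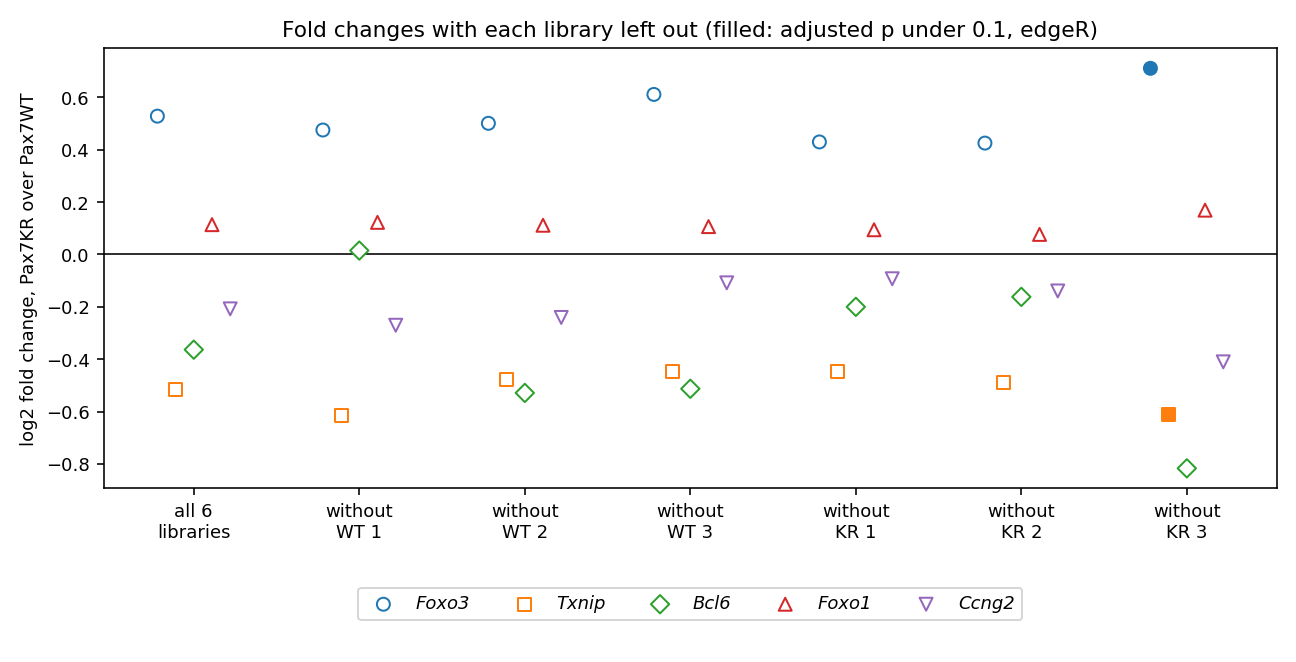
Log2 fold change, Pax7KR over Pax7WT, of Foxo3, Txnip, Bcl6, Foxo1 and Ccng2 with all 6 libraries and with each left out in turn; filled symbols have an edgeR adjusted p under 0.1. Without Pax7KR replicate 3, Foxo3 (0.71) and Txnip (-0.61) are called and lie farther from 0 than with all 6 libraries, and Bcl6 moves from -0.82 without that library to 0.01 without Pax7WT replicate 1.

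The rest of the pathway was read from lists of genes known to belong to it. Of 46 FoxO targets outside the members, 42 were tested, and 16 had a higher and 26 a lower estimate in Pax7KR, the median log2 difference being -0.04. At an unadjusted p under 0.05 there was 1 higher, the glucocorticoid and FoxO target Klf15, and 4 lower, Tgfb2, Cited2, Ccnd1 and Atg12. The last pair were named after their values were seen. Over all genes tested, 2.26% were higher and 2.43% lower at that level, which is the background for the lists below as well. The list was not split by whether FoxO factors raise or lower a gene, so its counts do not measure FoxO activity. Klf15 was at 46.4 ± 2.11 CPM in Pax7WT and 61.5 ± 3.24 in Pax7KR (SD, n = 3), a log2 difference of 0.40 with no overlap (adjusted p = 0.354 in edgeR and 0.019 in DESeq2). Tgfb2, which codes for a ligand of the TGF-beta family, was at 77.0, 60.3 and 62.3 CPM and at 41.4, 43.7 and 47.1, a log2 difference of -0.60 (adjusted p = 0.302 in edgeR and 0.00137 in DESeq2). Klf15 and Tgfb2 were each called in 4 of 18 alternatives, which were DESeq2 with and without the length offset, edgeR with no filter and edgeR without Pax7KR replicate 3. The liver and immune targets Igfbp1, G6pc, Pck1 and Fasl were at 0 reads in all 6 libraries.

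Upstream of the factors, 29 of 30 genes of the insulin receptor, PI3K and AKT chain were tested, with 20 higher and 9 lower, a median log2 difference of 0.05 and 1 gene at an unadjusted p under 0.05. That gene was Grb10, an adaptor that inhibits the insulin receptor, with a log2 difference of 0.18. Pik3r1, the regulatory PI3K subunit, and Rptor, a subunit of mTORC1, followed with 0.19 and 0.16. Among 30 tested genes of 31 that modify or bind FoxO proteins, 0 had an unadjusted p under 0.05, and the smallest were those of the acetyltransferase gene Crebbp at 0.12, the 14-3-3 gene Ywhae at -0.10 and Cdk2 at -0.13 on the log2 scale.

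Of the 14 glucocorticoid-responsive genes, 5 were higher and 9 lower, with 2 in each direction at an unadjusted p under 0.05: Fkbp5 and Zbtb16 higher, and Angptl4 and, named after its values were seen, the receptor gene Nr3c1 lower. Angptl4, a lipoprotein lipase inhibitor and also a FoxO target in other tissues, was at 22.1, 52.4 and 30.7 CPM in Pax7WT and 8.22, 16.5 and 13.9 in Pax7KR, a log2 difference of -1.44 ± 0.46 (SE, edgeR adjusted p = 0.992). Of 21 genes known to respond to tissue dissociation, 8 were higher and 13 lower, and Myc, with a log2 difference of -0.20, had an unadjusted p under 0.05. Egr3 and Hsp90aa1 came next in that list, with log2 differences of -0.82 and -0.16. Summed, these 21 genes were at 29900 to 50000 CPM in Pax7WT and 38400 to 44300 in Pax7KR, so the groups overlapped. In each of the erythroid, smooth muscle and myofibre lists 0 genes had an unadjusted p under 0.05 and none was at 0. All 6 erythroid markers, Hba-a1 and Hba-a2 among them, were higher in Pax7KR, with a median log2 difference of 0.69, and summed to 190, 211 and 376 CPM in Pax7WT and 353, 329 and 557 in Pax7KR, where replicate 3 was the highest. Of 10 smooth muscle and pericyte markers, Pdgfrb and Rgs5 among them, 9 were lower (median -0.09), with sums of 2600 to 2960 CPM in Pax7WT and 2420 to 2660 in Pax7KR. Pdgfrb was at 15.4 to 23.5 CPM and Rgs5 at 26.5 to 51.0 over the 6 libraries, so other listed genes made up most of these sums. Of 12 myofibre markers, Acta1 and Ckm among them, 9 were lower (median -0.13), with sums of 245 to 268 and 196 to 249 CPM. The part of these cells in the differences of the members was not tested.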

How the data were processed

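RNA from sorted satellite cells was made into libraries with a directional kit and sequenced by the authors in pairs of reads, and transcripts were quantified with salmon 1.3.0 on a GENCODE mouse index (GRCm38). The strand setting was not given in the sources used here. Per the file headers, each deposited table holds estimated counts and TPM per transcript. A further deposited table, with mean level, log2 fold change and p-values of the authors' comparison, was not used. Here estimated reads were summed per gene through GENCODE vM21, an older release than that of the authors, matching 139791 of 140992 transcripts and leaving 0.592 to 0.634% of reads unmatched, then rounded. A gene entered the edgeR 4.0.16 test if at least 2 libraries had at least 5 reads (TMM scaling, robust quasi-likelihood, no covariates), with Benjamini-Hochberg adjustment over all 17152 genes and a cut-off of 0.1 (R 4.3.3). The biological coefficient of variation was 13.8%. The study itself tested with DESeq2 at the same filter and cut-off and reported genes that differed, and edgeR took its place here as the main test. DESeq2 1.42.0, limma-voom (limma 3.58.1), other scalings, filters and offsets, a replicate block and each library left out were the alternatives. The scripts were tested on simulated data. CPM uses TMM library sizes, and TPM was summed per gene.

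Members, lists and tests were chosen with earlier results of these data known. All 10 members are named; in other lists at most the 3 genes of smallest p, for marker lists the first 2 genes, and for Foxo1, Foxo3, Foxo4 and Txnip the 3 most similar profiles among genes at 10 CPM or more whose SD was at least 0.8 of the member's. Exceptions are marked in the text. Replicates of a genotype differed by more than sampling noise, so none was merged. Promoters are RefSeq windows. A further marker list is not reported here.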

Additional observations from a re-analysis of the deposited data

How the results depend on the processing

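Over all 17152 genes 0 were called by edgeR with all 6 libraries (803 at an unadjusted p under 0.05), against 30 with DESeq2, 45 with DESeq2 and a transcript length offset, 157 with no filter on low reads and 13 with the replicate block. With 1 library left out there were 1 to 32 calls, the 32 without Pax7KR replicate 3. Of the members, 0 were called, against 2 with DESeq2, 1 with DESeq2 and the length offset, 1 with no filter, 1 with the replicate block and 0 to 2 with 1 library left out, the 2 again without Pax7KR replicate 3. The called members were Foxo3 and Txnip in DESeq2 and without Pax7KR replicate 3, and Txnip alone elsewhere. The causes of these differences were not tested. The sample labels do not say whether same-numbered libraries were paired. Over all genes, the deviations of same-numbered libraries from their genotype means had correlations of 0.00176, 0.0447 and -0.0558. Such correlations do not settle pairing for single genes, so the block counts above are given for completeness. Of 180 values for members under the alternatives 169 kept direction and side of the cut-off, 7 became called and 4 reversed; for other named genes it was 627, 18 and 3. All reversals came with 1 library left out, where the range of the log2 difference was -0.82 to 0.0149 for Bcl6, -0.0663 to 0.15 for Sesn3, -0.0301 to 0.18 for Pik3ip1, -0.11 to 0.0087 for Pax7 and -0.49 to 0.1249 for Sesn2. Bcl6, Pik3ip1 and Pax7 reversed without Pax7WT replicate 1, Sesn3 without Pax7WT replicate 2, Sesn2 without Pax7WT replicate 3, and Pik3ip1 and Sesn2 also without Pax7KR replicates 1 (-0.0217) and 3 (0.0478) in turn. Library totals alone moved the median of all genes to 0.03. A term for sex was not run: it was planned only for a genotype with libraries of both sexes, and Xist was at 0.437 to 2.29 CPM in all 6. The lower Y-linked sum of Pax7KR replicate 2 was not fitted as a term, and the values without that library are in the ranges above. With 3 libraries a genotype, intervals as wide as that of Bcl6 leave differences of either direction undetectable.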

Other observations

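In each genotype the library with the highest Bcl6 had the lowest Foxo3. In Pax7WT, replicate 1 had the highest Bcl6 (421 CPM) and the lowest Foxo3 (133), Fkbp5 (47.3) and Zbtb16 (36.6), and in Pax7KR, replicate 3 had the highest Bcl6 (346) and the lowest Foxo3 (151), Fkbp5 (69.6) and Zbtb16 (62.8). The genes were put side by side after their values were seen, and no test was made. At the other end the libraries differed in Pax7WT, where Bcl6 was lowest in replicate 2 and Foxo3 highest in replicate 3. The profiles nearest to that of Bcl6, also looked up after its values were seen, were those of Zdbf2, mt-Nd3 and Lrch4, at distances of 0.307, 0.324 and 0.328 on the log2 scale. These distances are larger than those of the genes most like Foxo3. Of these, the mitochondrially encoded mt-Nd3 was at 498, 305 and 517 CPM in Pax7WT and 236, 265 and 422 in Pax7KR, so that it was high in Pax7WT replicate 3 as well, where Bcl6 was not.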
